A study of Mus musculus with 24 samples.

Results

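The sarcomere and Z-disc genes described here are 37 named genes of the left ventricle (LV) of the mouse heart, out of 24958 named genes in the deposited table. They were chosen by name: 7 belong to the thick filament, 7 to the thin filament, 3 to titin and the M-band, 13 to the Z-disc, 4 to desmin and the chaperones of the sarcomere, and 3 are muscle RING finger (MuRF) ubiquitin ligases. All 37 had a row, and 36 reached the mean value of 10 needed for testing. Myl7, the atrial regulatory light chain, did not, with 0 to 14.5 in the 24 libraries.

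RNA was sequenced from 6 groups of 4 LV libraries of C57BL6/J mice aged 24 months, each library being a pool of RNA from 2 mice. Ovx + AngII females had been ovariectomized at 12 months and received angiotensin II (AngII) at 1.5 mg/kg/day from an osmotic minipump for 4 weeks, and Ctrl + AngII females received the same infusion with their ovaries left in place. Ovx females were ovariectomized at 12 months and received no AngII, and Ctrl females had neither. Gonadectomized males (gonads removed at 12 months) and control males received no AngII. According to the paper, sham surgery placed no pump with vehicle, so AngII and the pump cannot be told apart. Running saucers were also taken away for the time of the AngII treatment, and the paper does not state whether other groups kept theirs. The number of replicates, n = 4, counts pools, and whether the Ctrl + AngII pools all came from different mice could not be settled. All p-values therefore measure the spread between pools. AngII raises blood pressure and also acts directly on heart cells, so the infusion is a model of pressure load with a circulating hormone.

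Cardiac muscle shortens when myosin heads of the thick filament pull on actin of the thin filament, under the control of troponin and tropomyosin. Thin filaments of neighbouring sarcomeres are anchored at the Z-disc through alpha-actinin, thick filaments are cross-linked at the M-band, and titin runs from the Z-disc to the M-band. Desmin filaments tie Z-discs to one another and to the cell membrane. The Z-disc also carries LIM-domain and filamin-binding proteins that take part in sensing stretch, and changes in its gene products accompany cardiac hypertrophy and several inherited cardiomyopathies.

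Values are the authors' normalized values, rescaled in this work so that the typical gene sits at the same level in every library ("rescaled value", no unit). A gene was called where limma's adjusted p, over 13799 genes, was at most 0.05. Deposited values summed to 19358943 to 25889811 per library with 15231 to 16604 genes above 0. Read depth was not available and was estimated from the smallest values above 0 of each library. Relative to the median library, this estimate ranged from 0.447 (library 40, Ctrl + AngII) to 1.53. The 36 genes tested and Myl7 together took 12.0 to 13.7% of the summed values of a library. The LV label was checked on marker genes. Atp2a2, the calcium pump of heart muscle, stood at 294757 to 422482 in all libraries. Of the atrial list Sln and Bmp10 stayed at or below 25.2, whereas Nppa, the atrial natriuretic peptide, which a loaded ventricle also makes, stood at 12337 to 20165 in Ovx + AngII against 2087 to 4919 in Ovx, and at 19685 to 24730 in Ctrl + AngII against 1586 to 3681 in Ctrl. The skeletal markers Myog, Myh1, Myh2, Myh4 and Actn3 stayed at or below 11.9, Mylpf and Tnnt3 at or below 44.4, and Ckm, which heart muscle also makes, was abundant. In bulk tissue, fewer cells of a type and less RNA per cell cannot be told apart.

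Per kilobase of the longest annotated coding transcript, the highest levels over the 24 libraries were those of Myl2, the ventricular regulatory light chain (232249 ± 26210 per kb, SD, n = 24), and Actc1, cardiac actin (213078 ± 23623 per kb). Tnnt2 (141521 per kb), Myh6 (138120 per kb), Myl3 (115862 per kb) and Tnni3 (94959 per kb) followed. These are the cardiac troponin T, the fast myosin heavy chain of adult mouse ventricle, the essential light chain and the cardiac troponin I. Among Z-disc genes Tcap (42647 per kb), Csrp3 (30109 per kb), Fhl2 (24848 per kb) and Actn2 (22776 per kb) led. Ttn reached 1382 per kb over a transcript of 106824 bases, a length that no cardiac isoform need use in full. At the low end stood Pdlim3 (207 per kb), Myl4 (51.4 per kb) and Myl7 (9.18 per kb). The order was coarse, since the range over libraries of only 6 of the 36 pairs of neighbours did not overlap.

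With AngII a set of Z-disc, desmin and M-band genes was higher and a few contractile genes were lower, and with all libraries no member called changed by as much as 1 on the log2 scale (as 1.11% of all genes tested did in Ovx and 1.17% in Ctrl). In Ovx females 10 of 36 members were called, 7 higher and 3 lower (27.8%, against 10.2% of all genes tested, with 5.09% higher and 5.09% lower). In Ctrl females 13 of 36 were called, 10 higher and 3 lower (36.1%, against 8.17% of all genes tested, with 4.8% higher and 3.38% lower). The Ctrl count was 7 when only the 2 groups were fitted, 6 without libraries 49 to 54 and 3 against a log2 fold of 0.2, and the Ovx count was 16 with library weights and 3 against that fold. Since members are abundant, the shares called among genes averaging 1000 or more are a nearer background, at 18% in Ovx and 14.1% in Ctrl. The AngII libraries did not overlap the others for 19 of 36 members in Ovx (16.5% of all genes) and 13 of 36 in Ctrl (12.8% of all genes). For counts of libraries that do not overlap, here and below, no share among genes averaging 1000 or more was computed. The median log2 fold change of the members was 0.15 in Ovx and 0.08 in Ctrl, against 0.01 and -0.01 over all genes tested. Z-disc genes made up much of the count, with 5 higher and 1 lower of 13 in Ovx and 6 higher of 13 in Ctrl. Of the 6 thick-filament members tested, 1 was lower in Ovx, and 1 was higher and 1 lower in Ctrl. Of the 7 thin-filament members, 1 was lower in Ovx, and 1 was higher and 1 lower in Ctrl. None of the 3 MuRF ligases was called in either, at adjusted p of 0.065 or more. The 2 comparisons use different control libraries but were fitted together with a shared estimate of each gene's spread. Their calls are therefore not independent. Members called in both numbered 8 (80% of the Ovx calls and 61.5% of the Ctrl calls), 6 higher and 2 lower, and 21 were called in neither. Over all genes tested, the shared calls were 39.7% of the Ovx calls and 49.5% of the Ctrl calls, and over genes averaging 1000 or more 45.1% and 57.4%.

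The direction of the small effects depends on the scale. As deposited, the median over all genes tested was lower with AngII by 0.28 on the log2 scale in Ctrl and by 0.08 in Ovx. The log2 factors used to rescale the libraries were nearly the same within a group and stepped between groups. They were -0.084 to -0.079 in Ctrl + AngII against 0.189 to 0.199 in Ctrl. In Ovx + AngII they were 0.023 to 0.029, against 0.106 to 0.116 in Ovx. The source of these steps was not tested, and changes are given relative to them. Left on the deposited scale, 4 members were higher and 17 lower with AngII in Ctrl, and 6 higher and 6 lower in Ovx. These counts include the steps between groups.

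**Figure D1:**
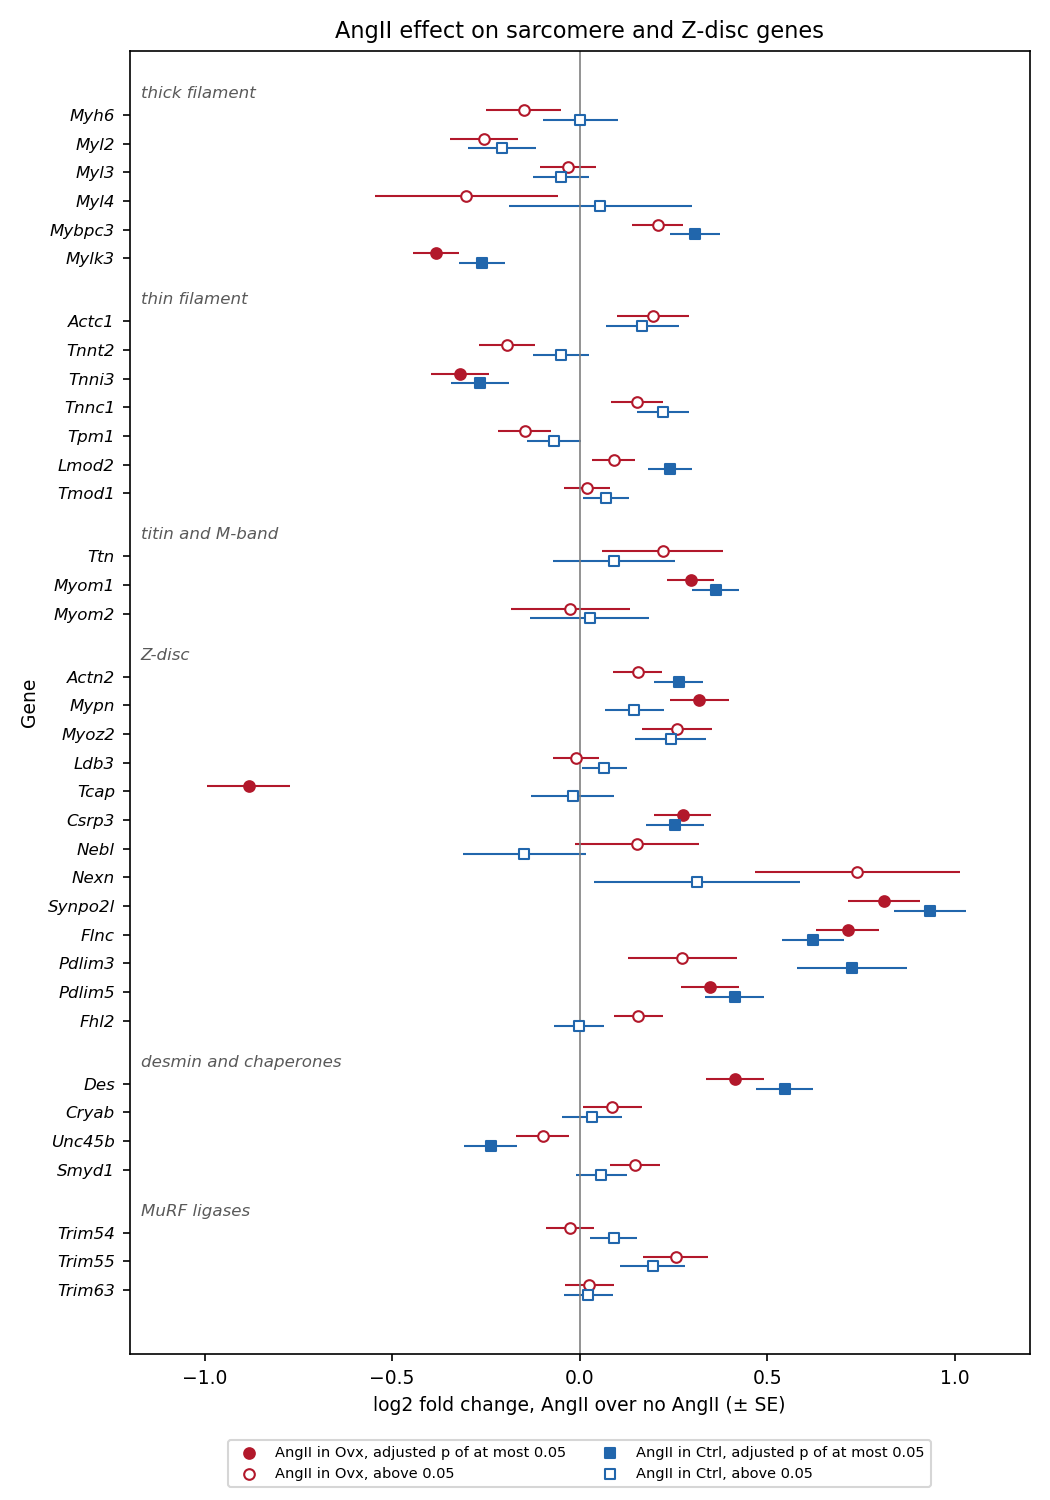
Log2 fold change (± SE) with AngII in Ovx (red circles) and in Ctrl females (blue squares) for the 36 members tested, by role, with filled symbols for adjusted p of at most 0.05. Synpo2l, Flnc, Des, Myom1, Pdlim5 and Csrp3 lie to the right of 0 in both, Mylk3 and Tnni3 to the left in both, and Tcap lies to the left in Ovx (-0.88) and near 0 in Ctrl (-0.02).

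Synpo2l encodes a synaptopodin-like protein of the Z-disc that binds actin and alpha-actinin. Its values were 8965, 10464, 10226 and 9658 in Ovx + AngII, against 5624, 5220, 5785 and 5753 in Ovx. In Ctrl + AngII they were 9895, 7845, 7122 and 9227, against 4436, 5240, 3802 and 4338 in Ctrl. Every AngII library lay above every library without it, in both pairs of groups. The log2 fold change was 0.81 ± 0.10 (SE) in Ovx (adjusted p = 3.7e-05, limma) and 0.93 ± 0.10 in Ctrl (adjusted p = 8.6e-06, limma), the largest increase of any member in both. With 4 libraries a side, separated groups give an exact two-sided permutation p of 0.0286, the smallest that 70 labellings allow.

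Flnc, filamin C, cross-links actin at the Z-disc and at the cell membrane. It stood at 23068, 24469, 28777 and 22285 in Ovx + AngII, against 14872, 14488, 14901 and 15549 in Ovx. It stood at 20583, 19187, 17613 and 22033 in Ctrl + AngII, against 13483, 13350, 11098 and 13677 in Ctrl. Neither pair overlapped, and the increase was 0.71 ± 0.08 in Ovx (adjusted p = 3.1e-05, limma) and 0.62 ± 0.08 in Ctrl (adjusted p = 9.7e-05, limma).

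Des, the intermediate filament desmin, was at 67156, 72142, 82952 and 67832 in Ovx + AngII, against 53721, 53075, 55921 and 54142 in Ovx. It was at 82776, 72766, 79673 and 80206 in Ctrl + AngII, against 59568, 54482, 47049 and 55387 in Ctrl. All AngII libraries were above all others, with log2 fold changes of 0.41 ± 0.08 in Ovx (adjusted p = 0.0018, limma) and 0.55 ± 0.08 in Ctrl (adjusted p = 1.5e-04, limma). Among the chaperones, Cryab, the small heat shock protein that binds desmin, moved by 0.09 ± 0.08 in Ovx and 0.03 ± 0.08 in Ctrl and was not called, and neither was Smyd1, a methyltransferase needed for sarcomere assembly (0.15 ± 0.07 and 0.06 ± 0.07).

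**Figure D2:**
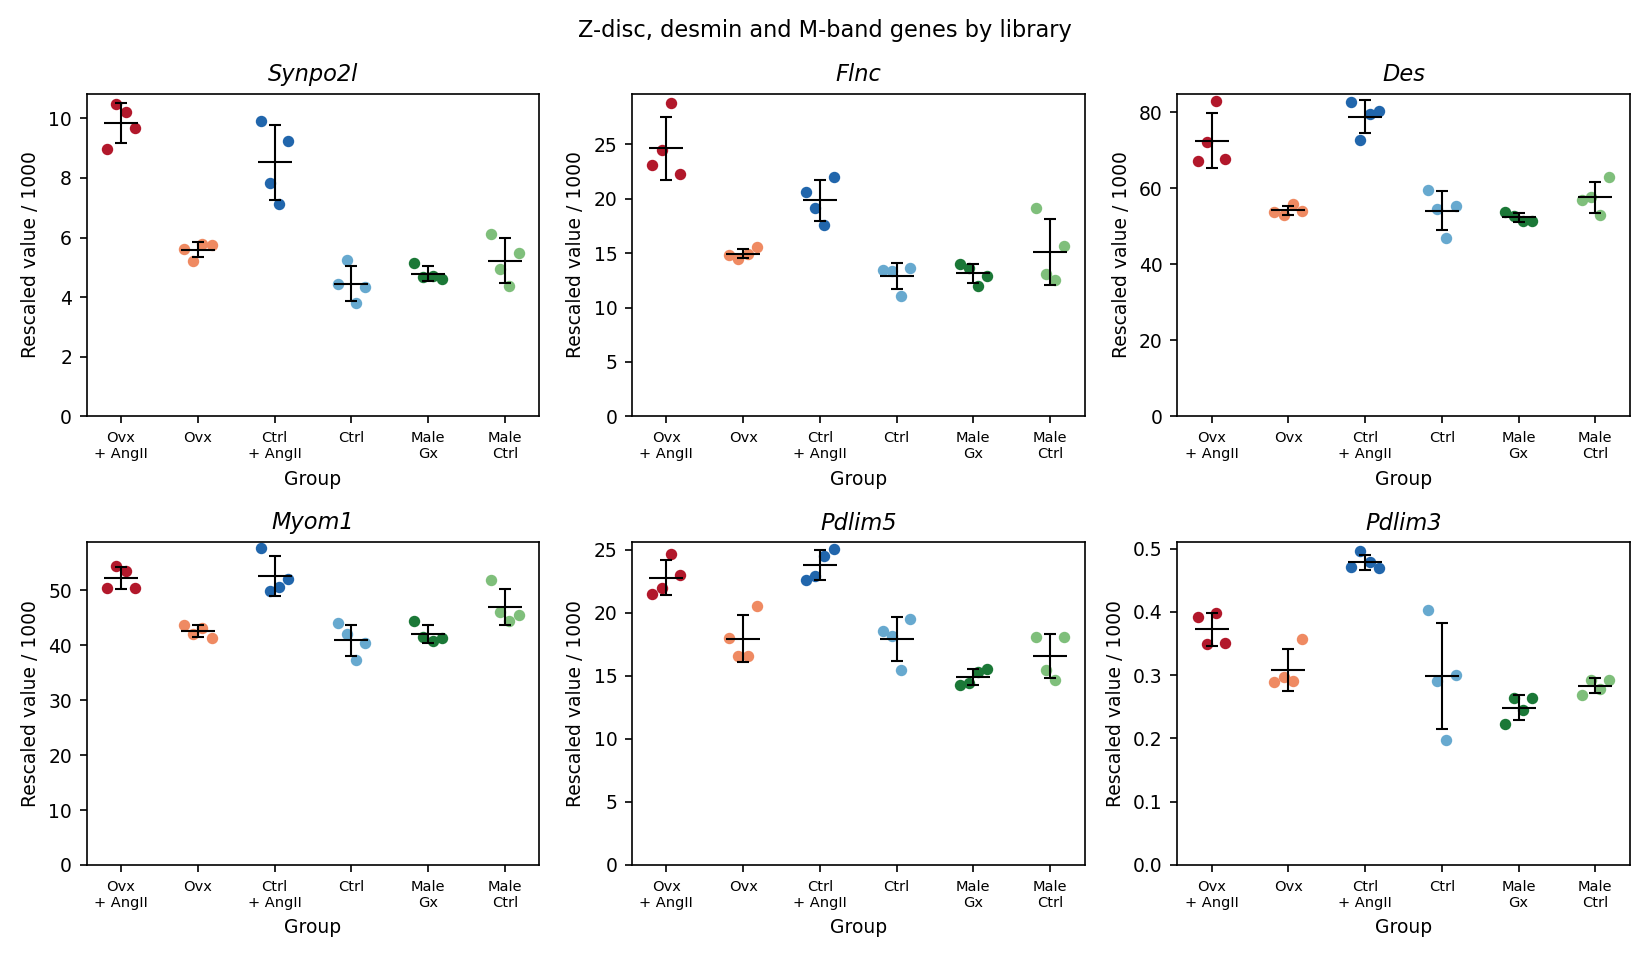
Rescaled value divided by 1000 (linear axis from 0) of 6 members by group, with a point per library and mean ± SD (n = 4). AngII libraries lie above the libraries without AngII of the same surgery for Synpo2l, Flnc, Des, Myom1 and Pdlim5, and for Pdlim3 only Ctrl + AngII lies clear of Ctrl.

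Of the Pdlim family, PDZ and LIM domain adaptors that bind alpha-actinin, Pdlim5 rose in both and Pdlim3 was called in Ctrl alone. Pdlim5 was at 21534, 21962, 24661 and 23004 in Ovx + AngII, against 17992, 16615, 16601 and 20584 in Ovx. It was at 22642, 22913, 24540 and 25090 in Ctrl + AngII, against 18600, 18148, 15432 and 19518 in Ctrl. Its increase was 0.35 ± 0.08 in Ovx (adjusted p = 0.0071, limma) and 0.41 ± 0.08 in Ctrl (adjusted p = 0.0023, limma), with no overlap. Pdlim3, a low transcript, had 391, 350, 398 and 350 in Ovx + AngII, against 289, 296, 291 and 357 in Ovx. It had 471, 495, 478 and 469 in Ctrl + AngII, against 403, 291, 198 and 300 in Ctrl. The libraries of Ovx + AngII overlapped those of Ovx, with 0.27 ± 0.15 (adjusted p = 0.25, limma), and the Ctrl pair stood apart, with 0.73 ± 0.15 (adjusted p = 0.0038, limma). The difference between the AngII effects of Pdlim3 was -0.45 ± 0.21 and was not called (adjusted p = 0.46, limma).

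Myom1, myomesin 1, cross-links thick filaments at the M-band. It was at 50509, 54456, 53585 and 50522 in Ovx + AngII, against 43781, 42113, 43107 and 41293 in Ovx. It was at 57786, 49861, 50662 and 52084 in Ctrl + AngII, against 44010, 42042, 37259 and 40398 in Ctrl. Neither pair overlapped, and the increase was 0.30 ± 0.06 in Ovx (adjusted p = 0.0045, limma) and 0.36 ± 0.06 in Ctrl (adjusted p = 9.7e-04, limma). Myom2, the other myomesin of adult heart, moved by -0.03 ± 0.16 and 0.03 ± 0.16, and Ttn by 0.22 ± 0.16 and 0.09 ± 0.16, all uncalled. Without library 43 of Ovx, the library highest for Ttn in that group, the change of Ttn in Ovx was 0.47 ± 0.09. That omission was picked on these values, which its adjusted p of 0.0028 (limma) does not take into account.

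Csrp3, muscle LIM protein, a stretch-linked protein of the Z-disc, was at 30629, 29630, 33045 and 31943 in Ovx + AngII, against 22731, 25952, 26482 and 28662 in Ovx. It was at 26955, 29520, 28801 and 31527 in Ctrl + AngII, against 26124, 25284, 21048 and 25674 in Ctrl. Groups did not overlap, and the log2 fold changes were 0.27 ± 0.08 (adjusted p = 0.029, limma) and 0.25 ± 0.08 (adjusted p = 0.048, limma). The adjusted p reached 0.089 in Ovx and 0.14 in Ctrl when 1 library was left out, and the call ended without library 43, 44, 45, 48 or 54 in Ovx and without any library but 40 in Ctrl. Mypn, myopalladin, which links nebulin-like proteins to alpha-actinin, was at 5935, 5580, 7064 and 5421 in Ovx + AngII, against 4907, 4750, 4960 and 4525 in Ovx. The increase of Mypn in Ovx was 0.32 ± 0.08 (adjusted p = 0.013, limma), and it was lost without library 48, where its value was 7064 (adjusted p = 0.052, limma). In Ctrl + AngII it was at 6048, 5042, 5384 and 5988, against 5362, 4809, 4698 and 5411 in Ctrl, with overlap and 0.15 ± 0.08 (adjusted p = 0.30, limma).

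Actn2, the sarcomeric alpha-actinin, Mybpc3, cardiac myosin binding protein C, and Lmod2, a leiomodin that lengthens thin filaments, were called in Ctrl. Actn2 was at 74517, 73982, 74830 and 68768 in Ovx + AngII, against 63699, 64742, 67682 and 66092 in Ovx, without overlap, with 0.16 ± 0.07 (adjusted p = 0.14, limma). Actn2 anchors the barbed ends of thin filaments. It was at 80208, 70654, 69144 and 80330 in Ctrl + AngII, against 65974, 63462, 56844 and 63556 in Ctrl, without overlap, with 0.26 ± 0.07 (adjusted p = 0.016, limma). Without library 40 or 52 the adjusted p of Actn2 in Ctrl was 0.056 or 0.063 (limma). Mybpc3 was at 114045, 120103, 105551 and 113234 in Ovx + AngII, against 92344, 102888, 99115 and 97729 in Ovx, with 0.21 ± 0.07 (adjusted p = 0.056, limma). It was at 109149, 110697, 112243 and 119689 in Ctrl + AngII, against 94658, 95295, 81438 and 94207 in Ctrl, with 0.31 ± 0.07 (adjusted p = 0.0069, limma). Both Mybpc3 pairs stood apart, with every AngII library the higher. Lmod2 was at 19436, 20208, 20087 and 19751 in Ovx + AngII, against 19722, 17555, 18331 and 19090 in Ovx, with 0.09 ± 0.06 (adjusted p = 0.35, limma). It was at 22848, 20910, 23663 and 23648 in Ctrl + AngII, against 19545, 20963, 17794 and 18825 in Ctrl, with 0.24 ± 0.06 (adjusted p = 0.013, limma), the lowest AngII library lying just inside the range of Ctrl. The Ctrl calls of Actn2, Mybpc3 and Lmod2 ended when only the 2 groups were fitted (adjusted p = 0.094, 0.054 and 0.064, limma) and without libraries 49 to 54 (adjusted p = 0.14, 0.088 and 0.16, limma). On the deposited scale the direction of Actn2, Csrp3 and Lmod2 in Ctrl turned slightly negative.

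Sequence upstream of the genes that rose together was read from the RefSeq promoter table (build GRCm38.p6), taking the 250 bases before each annotated start. Of the 37 members, 32 had an entry, in 44 windows. Shown are the windows of the 3 members with the largest increases among those called in both, with both alternative starts of Synpo2l and the upstream of 2 overlapping windows of Flnc. The window of Mybpc3, which was called in Ctrl alone, is added and holds a MEF2 match. Myom1, Pdlim5 and Csrp3, also called in both, have no MEF2 match and are not printed. Bases are in lower case with matches to the MEF2 consensus, on either strand, in capitals.
Synpo2l, upstream start, chr14:20668355-20668604, minus strand: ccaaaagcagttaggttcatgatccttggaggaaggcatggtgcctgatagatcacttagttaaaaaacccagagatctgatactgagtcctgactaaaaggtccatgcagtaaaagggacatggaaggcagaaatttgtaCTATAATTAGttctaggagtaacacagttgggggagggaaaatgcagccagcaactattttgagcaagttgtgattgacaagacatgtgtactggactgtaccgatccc
Synpo2l, downstream start, chr14:20664575-20664824, minus strand: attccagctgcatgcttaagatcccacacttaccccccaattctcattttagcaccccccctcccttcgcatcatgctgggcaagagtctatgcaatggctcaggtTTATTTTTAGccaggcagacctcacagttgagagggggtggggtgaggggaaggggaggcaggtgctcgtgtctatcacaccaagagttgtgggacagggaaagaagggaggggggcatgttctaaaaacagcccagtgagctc
Mybpc3, chr2:91117894-91118143, plus strand: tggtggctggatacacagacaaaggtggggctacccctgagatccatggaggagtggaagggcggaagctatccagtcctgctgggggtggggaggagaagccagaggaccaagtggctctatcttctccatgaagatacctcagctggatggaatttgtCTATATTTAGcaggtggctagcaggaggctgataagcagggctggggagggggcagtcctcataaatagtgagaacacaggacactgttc
Flnc, upstream start, chr6:29432903-29433152, plus strand: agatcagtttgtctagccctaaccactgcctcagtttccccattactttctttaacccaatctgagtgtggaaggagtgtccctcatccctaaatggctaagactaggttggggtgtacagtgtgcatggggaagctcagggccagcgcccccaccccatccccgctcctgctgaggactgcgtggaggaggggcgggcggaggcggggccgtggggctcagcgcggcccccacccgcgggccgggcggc
Des, chr1:75360042-75360291, plus strand: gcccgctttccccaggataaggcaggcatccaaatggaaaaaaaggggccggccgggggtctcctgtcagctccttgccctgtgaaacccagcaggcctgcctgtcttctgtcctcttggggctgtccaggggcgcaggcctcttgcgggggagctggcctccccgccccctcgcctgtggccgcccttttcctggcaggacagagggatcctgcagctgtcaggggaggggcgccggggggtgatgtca
MEF2, a transcription factor of muscle genes, has a consensus match in 1.69% of the 32851 windows of the table and in 11.4% of the 44 member windows, which belong to Mybpc3, Myoz2, Synpo2l and Ttn. The Synpo2l matches begin 109 and 144 bases before the 2 starts. The consensus of serum response factor (the CArG box) was in 1.47% of all windows and in 20.5% of member windows, among them those of Actc1, Ldb3 and Myom1. CATTCC, the MCAT element, was in 12.6% of all windows and in 31.8% of member windows, and AGATAA, the GATA element, in 9.99% and 15.9%. TATAAA was in 12.4% of all windows and in 13.6% of member windows, and CACGTG, the E-box, in 6.02% and 4.55%. In the 250 bases printed for Flnc and Des none of these 6 was found, but the second window of Flnc, which is not printed, holds CATTCC 104 bases before its start. All motifs were searched on both strands, windows of one gene may overlap, and a match is a string of letters, not a shown binding site.

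The members lower with AngII in both were Mylk3, the kinase of the cardiac regulatory light chain, and Tnni3, cardiac troponin I. Mylk3 was at 11690, 12426, 10061 and 11211 in Ovx + AngII, against 14664, 14668, 15037 and 14650 in Ovx. It was at 12087, 14169, 13055 and 12378 in Ctrl + AngII, against 16370, 14906, 15142 and 15427 in Ctrl. No AngII library reached a library without AngII, and Mylk3 changed by -0.38 ± 0.06 in Ovx (adjusted p = 6.4e-04, limma) and -0.26 ± 0.06 in Ctrl (adjusted p = 0.013, limma), the second with an adjusted p of 0.050, just past the threshold, without library 37. The substrate of Mylk3, Myl2, was at 182867, 177977, 157910 and 189650 in Ovx + AngII, against 199664, 216403, 217507 and 210216 in Ovx, and was not called (-0.25 ± 0.09, adjusted p = 0.081, limma). Tnni3 was at 75146, 71342, 68080 and 73332 in Ovx + AngII, against 89594, 94232, 87129 and 88132 in Ovx. It was at 78076, 77525, 77076 and 77626 in Ctrl + AngII, against 113138, 89210, 81943 and 91600 in Ctrl, again without overlap. Tnni3 changed by -0.32 ± 0.08 in Ovx (adjusted p = 0.011, limma) and -0.27 ± 0.08 in Ctrl (adjusted p = 0.039, limma), and the Ctrl call ended in 7 of 8 omissions of 1 library (all but library 39), to adjusted p values of up to 0.11. Unc45b, a myosin chaperone, was called in Ctrl alone (-0.24 ± 0.07, adjusted p = 0.044, limma; -0.10 ± 0.07 in Ovx, adjusted p = 0.41), with 4508 to 5248 in Ctrl + AngII against 5466 to 6370 in Ctrl. The difference between the AngII effects of Unc45b was not called (0.14 ± 0.10, adjusted p = 0.68, limma). Its Ctrl call held only without library 41 or 51 among 8 omissions of 1 library, with adjusted p of up to 0.16.

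**Figure D3:**
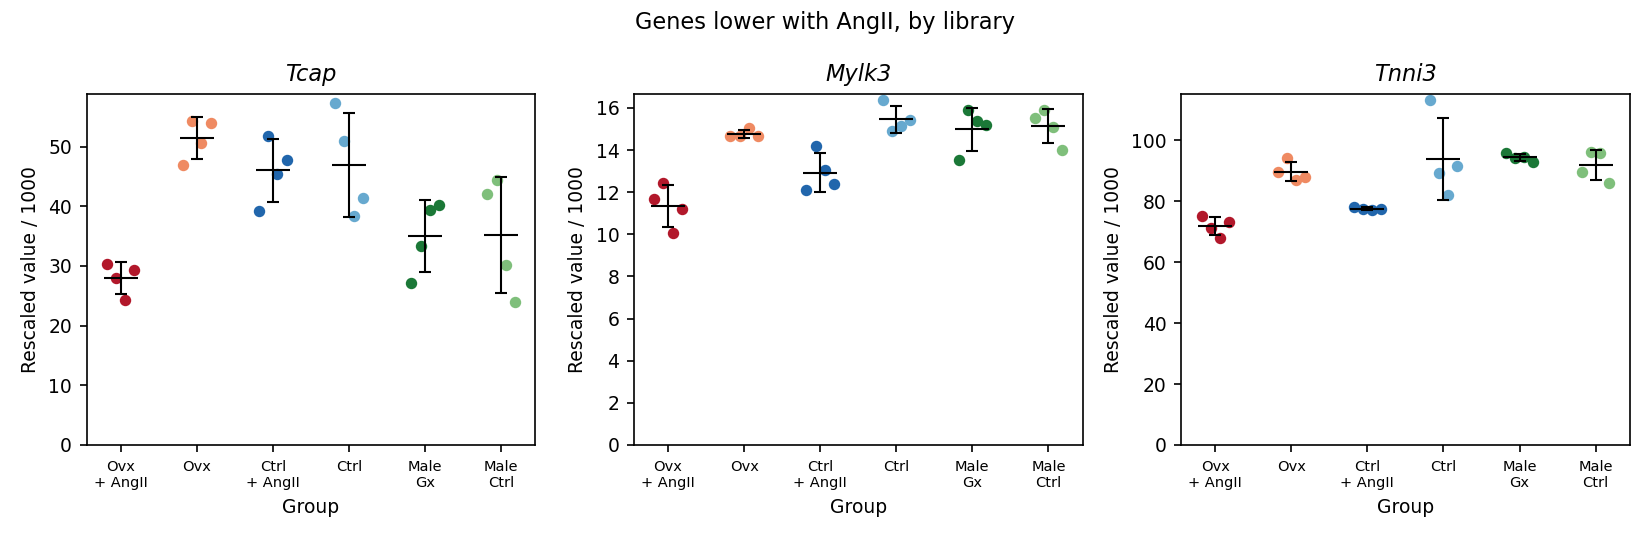
Rescaled value divided by 1000 (linear axis from 0) of Tcap, Mylk3 and Tnni3 by group, with a point per library and mean ± SD (n = 4). Tcap lies at 24299 to 30385 in Ovx + AngII and at 46850 to 54357 in Ovx, while its Ctrl + AngII and Ctrl libraries overlap, and the control males span 23964 to 44402.

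Tcap, telethonin, caps titin at the Z-disc, and it was the member whose AngII effect differed between Ovx and Ctrl. It was at 30385, 27925, 24299 and 29259 in Ovx + AngII, against 46850, 54357, 50661 and 53962 in Ovx. It was at 39185, 51696, 45384 and 47804 in Ctrl + AngII, against 57227, 50945, 38302 and 41403 in Ctrl. Every Ovx + AngII library lay below every library of the other 3 female groups, which overlapped each other. Tcap fell by 0.88 on the log2 scale with AngII in Ovx (SE 0.11, adjusted p = 6.1e-05, limma) and moved by -0.02 ± 0.11 in Ctrl (adjusted p = 0.95, limma). The difference of the effects was -0.86 ± 0.16 (adjusted p = 0.045, limma), 1 of 36 members against 0.058% of all genes tested. That call lies near the threshold: in 11 of 16 omissions of 1 library it ended (without library 38, 41, 42, 44, 45, 47, 48, 51, 52, 53 or 54), with adjusted p between 0.012 and 0.15, while its size stayed between -0.97 and -0.77. It also ended under 9 of 15 other settings, among them the library number range as a covariate (-0.86 ± 0.16, adjusted p = 0.053, limma) and the fit without libraries 49 to 54 (-0.79 ± 0.20, adjusted p = 0.65, limma).

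Under AngII, Tcap was lower in Ovx + AngII than in Ctrl + AngII by -0.72 ± 0.11 (adjusted p = 0.0024, limma), which held in all 8 omissions of 1 library (adjusted p 0.0025 to 0.011). It was the only member called there, against 1.01% of all genes tested. In males, Tcap spread widely, at 27070, 33376, 39424 and 40133 in gonadectomized males, against 42053, 44402, 30233 and 23964 in control males.

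Of the circadian clock, 4 genes (Arntl, Npas2, Dbp and Per2) were looked at after the values of Tcap had been seen. The paper already reports that AngII changed all 4 in the LV of Ovx mice, so their count of calls is not a new result. All 4 were called with AngII in Ovx and none in Ctrl (10.2% and 8.17% of all genes tested were called). Dbp, a clock output factor, was at 2518, 1883, 1467 and 2006 in Ovx + AngII, against 4476, 5083, 4641 and 5538 in Ovx. Arntl, the core clock activator, was at 295, 368, 459 and 362 in Ovx + AngII, against 218, 128, 189 and 77.1 in Ovx. All 4 Ovx + AngII libraries had more Arntl and less Dbp than any Ovx library. The difference between the AngII effects was -1.19 ± 0.19 for Dbp (adjusted p = 0.018, limma) and 1.30 ± 0.45 for Arntl (adjusted p = 0.33, limma). Npas2, which pairs with Arntl, and Per2, a clock repressor, had differences of 1.29 ± 0.33 and -0.96 ± 0.23 (adjusted p = 0.14 and 0.12, limma). In gonadectomized males, in the library order used for Tcap above, Dbp was at 1394, 2130, 3361 and 2885, against 3728, 3063, 1892 and 1228 in control males. The paper names as a limit that its animals were killed at different times within a window of several hours of the day. The part of time of day in the Tcap result was not tested.

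Of the members not named so far, Myoz2 (calsarcin 1) moved by 0.26 ± 0.09 in Ovx and 0.24 ± 0.09 in Ctrl, Trim55 (MuRF2) by 0.26 ± 0.09 and 0.19 ± 0.09, and Tnnc1 (cardiac troponin C) by 0.15 ± 0.07 and 0.22 ± 0.07, all without a call. Actc1 (0.20 ± 0.10 and 0.17 ± 0.10), Tnnt2 (-0.19 ± 0.07 and -0.05 ± 0.07), Tpm1, alpha-tropomyosin (-0.15 ± 0.07 and -0.07 ± 0.07), and Fhl2, a LIM protein that binds titin (0.16 ± 0.07 and 0.00 ± 0.07), were not called either. The values of the main myosin heavy chain Myh6 (-0.15 ± 0.10 and 0.00 ± 0.10), of Myl3 (-0.03 ± 0.07 and -0.05 ± 0.07), of the Z-disc adaptor Ldb3 (-0.01 ± 0.06 and 0.07 ± 0.06) and of the pointed-end cap Tmod1 (0.02 ± 0.06 and 0.07 ± 0.06) were not called. Myl4, the atrial essential light chain, had -0.30 ± 0.24 and 0.05 ± 0.24. The other MuRF ligases had -0.03 ± 0.06 and 0.09 ± 0.06 (Trim54, MuRF3) and 0.03 ± 0.07 and 0.02 ± 0.07 (Trim63, MuRF1). A missed threshold does not show that these genes were alike between groups.

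Variation within groups was small for most members. The median coefficient of variation within a group was 6.38% over the 36 members, and 29 members had a median over the 6 groups under 10% (14 were under 10% in every group), against 10.1% over all genes tested and 6.10% over genes averaging 1000 or more. Myl4, a low transcript (22.3%), Nexn (20.8%), Tcap (14.4%), Nebl (14.2%), Myom2 (11.1%) and Ttn (10.96%) varied most. Ttn stood at 232438 in library 43 of Ovx, against 122780, 114119 and 115996 in the other 3 Ovx libraries. Nexn, which binds actin at the Z-disc, was at 12282 in library 43 and 3366 in library 45, with 6834 and 5406 in the other Ovx libraries. Nebl, nebulette, followed the same order, at 8305 in library 43 and 3812 in library 45, against 6195 and 5010. Myom2 was low in library 48 of Ovx + AngII, at 19554, against 35273, 40054 and 34952. Nexn moved most with AngII in Ovx among the members not called, by 0.74 ± 0.27 (adjusted p = 0.094, limma). Without library 43 its change was 1.07 ± 0.22. That omission too was picked on these values, which the adjusted p of 0.0044 (limma) does not take into account. Without library 43 and library 40, chosen after seeing the data, 11 members were called with AngII in Ovx and 9 in Ctrl, 9 in each being members already called with all libraries.

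**Figure D4:**
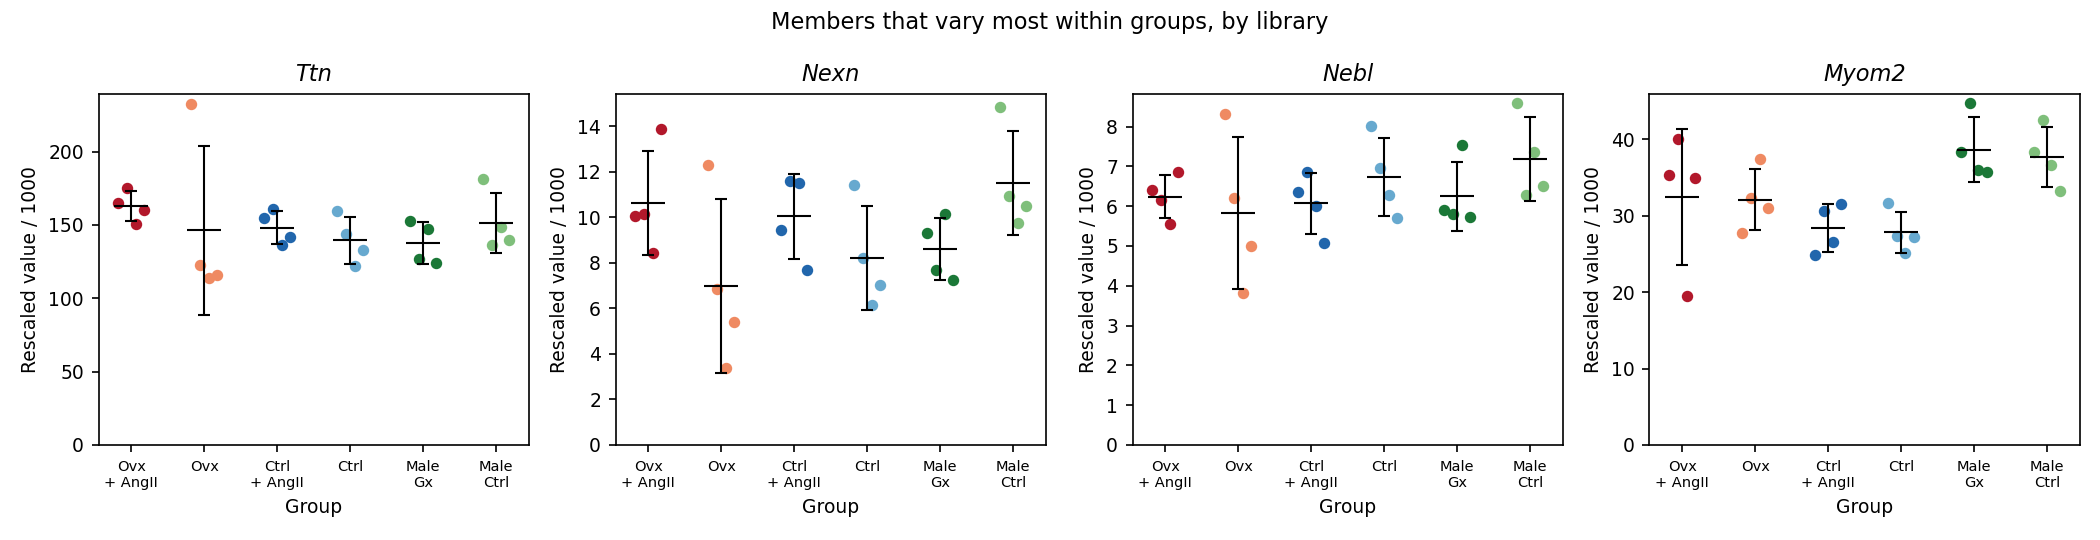
Rescaled value divided by 1000 (linear axis from 0) of Ttn, Nexn, Nebl and Myom2 by group, with a point per library and mean ± SD (n = 4). Library 43 stands at the top of Ovx for Ttn (232438), Nexn (12282) and Nebl (8305), and library 48 at the bottom of Ovx + AngII for Myom2 (19554).

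Ovariectomy without AngII left no member called (0 of 36 with limma, against 0.109% of all genes tested). At an unadjusted p under 0.05 there were 2 members, against 12.4% of all genes. Synpo2l, at 5624, 5220, 5785 and 5753 in Ovx against 4436, 5240, 3802 and 4338 in Ctrl, had the largest increase (0.34 ± 0.10, adjusted p = 0.15, limma), with 1 Ovx library below 1 Ctrl library. Flnc had 0.22 ± 0.08 (adjusted p = 0.28, limma), and its groups did not overlap. Nexn had the lowest value (-0.35 ± 0.27, adjusted p = 0.65, limma), with overlap, and -0.68 without library 43. Ovx + AngII and Ctrl + AngII libraries did not overlap for 7 of 36 members, against 6.81% of all genes. Of the 7, 1 lay above and 6 below in Ovx + AngII (3.28% and 3.54% of all genes). Flnc was the member above, at 0.31 ± 0.08 (adjusted p = 0.093, limma). The 6 below were Tcap, Pdlim3 (-0.36 ± 0.15, adjusted p = 0.33, limma) and 4 of the 7 thin-filament members. These 4 were Lmod2 (-0.19 ± 0.06, adjusted p = 0.14, limma), Tnnt2, Tnni3 and Tpm1. Of the members that did not overlap, Tcap alone was called.

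In males, gonadectomy left no member called (0 of 36 with limma, against 0.0797% of all genes tested, and 2 at an unadjusted p under 0.05, against 8.54%). The values at the ends were Trim63, at 5241, 5431, 5319 and 5241 in gonadectomized males against 3665, 5272, 5129 and 5529 in control males (0.13 ± 0.09, and 0.00 without library 31), and Nexn, at 9312, 7661, 10161 and 7254 against 14847, 10920, 9726 and 10504 (-0.41 ± 0.25). Both overlapped. Control males against Ctrl females gave 0 calls too (limma, against 1.2% of all genes tested, and 8 at an unadjusted p under 0.05, against 12.9%), the nearest being Mybpc3 at 0.25 ± 0.06 (adjusted p = 0.058, limma), with no overlap. The ends there were Nexn, at 14847, 10920, 9726 and 10504 in control males against 11398, 8192, 6162 and 7032 in Ctrl (0.51 ± 0.25, adjusted p = 0.40, limma), and Tcap (-0.44 ± 0.15, adjusted p = 0.18, limma). On the deposited scale, where the median over all genes tested was lower in males by 0.36 on the log2 scale, 28 members were lower in males. That count includes the step between groups. The effect of gonadectomy in females minus that in males was called for no member (limma, against 0.00725% of all genes tested, and 4 at an unadjusted p under 0.05, against 6.07%). It was at its highest for Synpo2l (0.45 ± 0.14, adjusted p = 0.53, limma), with 5161, 4664, 4702 and 4623 in gonadectomized males against 6112, 4948, 4368 and 5485 in control males. It was at its lowest for Tnni3, at -0.10 ± 0.10 (adjusted p = 0.92, limma), with a range of -0.16 to -0.0039 when 1 library was left out.

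Among 37 other sarcomere genes with a row, of which 33 were tested, 11 rose and 1 fell with AngII in Ovx, and 13 rose and 1 fell in Ctrl. The shares called were 36.4% in Ovx and 42.4% in Ctrl, against 10.2% and 8.17% of all genes tested. Among genes averaging 1000 or more they were 18% and 14.1%. Acta1, skeletal actin, which the fetal heart also uses, was at 26170, 34577, 53424 and 34102 in Ovx + AngII, against 6294, 5147, 4128 and 11349 in Ovx, and rose by 2.52 ± 0.39 (adjusted p = 4.1e-04, limma) in Ovx and 1.72 ± 0.39 (adjusted p = 0.0095, limma) in Ctrl. Xirp2, an actin-binding Xin repeat protein, and Ankrd23, an ankyrin repeat protein of the I-band, rose by 1.74 ± 0.31 and 1.24 ± 0.13 in Ovx, and by 1.27 ± 0.31 and 0.99 ± 0.13 in Ctrl. Ankrd1, a stretch-linked repeat protein of the I-band, rose by 1.01 ± 0.19 in Ovx and 1.47 ± 0.19 in Ctrl, and Tmod4, a skeletal tropomodulin, fell by 0.48 in Ovx and 0.68 in Ctrl on the log2 scale. None of these 33 genes was called for a difference between the AngII effects (limma, 2 at an unadjusted p under 0.05, against 10.4% of all genes tested).

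Markers of other cells moved with AngII too. For the counts that follow, the share called over all genes tested was 10.2% in Ovx and 8.17% in Ctrl. Among genes averaging 1000 or more it was 18% and 14.1%. Of 10 fibroblast markers 4 were higher in Ovx and 6 in Ctrl, with summed levels of 85300 to 92010 in Ovx + AngII and 70764 to 78314 in Ovx, and 82185 to 100832 in Ctrl + AngII and 61342 to 76425 in Ctrl. Of 6 markers of activated fibroblasts, 5 were higher in each. Of 9 markers of pericytes and smooth muscle, which also make desmin and filamins, 0 were higher and 1 lower in Ovx, against 5 higher and 1 lower in Ctrl. Their summed levels, mostly Rgs5 and Abcc9, were 34289 to 41539 in Ovx + AngII and 40155 to 44594 in Ovx. In Ctrl + AngII they were 38552 to 41367, and in Ctrl 38606 to 40410. The Ctrl sums join opposite movements. Abcc9 was at 8640 to 10619 in Ctrl + AngII against 12240 to 13878 in Ctrl, and Cnn1 at 132 to 202 against 37.7 to 102. Of 11 cardiomyocyte markers, 1 was higher and 3 were lower in Ovx, and 1 was higher and 2 were lower in Ctrl. Their summed levels, mostly Atp2a2 and Mb, were 892568 to 903578 in Ovx + AngII and 978810 to 1044390 in Ovx. In Ctrl + AngII they were 895536 to 942476, and in Ctrl 964426 to 1111880. The part of these shifts in the values of the members was not tested.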

How the data were processed

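LV mRNA was read in 24 libraries, 4 in each of 6 groups taken from the submitters' labels. The authors aligned paired-end reads from a stranded library kit to UCSC mm10 with STAR and normalized gene values with DESeq2 on the BaseSpace platform. STAR and Salmon appear in the notes of the submitters, with no version. The deposited values are a normalized signal, at or above 0 and fractional, and whole reads could not be recovered, so no count model was fitted and no counting interval is given. Left out were 14 rows named by dates (at most 0.0605% of a library's sum) and 1 row without a name. At 0 in all libraries were 5718 genes.

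Values were divided by a median-of-ratios factor per library and compared as log2(value + 1) by linear models with a trended prior (lmFit, contrasts.fit and eBayes of limma 3.58.1, R 4.3.3), over genes with a mean of at least 10, with Benjamini-Hochberg adjustment over all of them. A fold change on this scale understates low genes. Female comparisons were fitted on the 16 female libraries and the male and sex comparisons on all 24. The study's own threshold adds a log2 fold change of at least 1. The call used here does not. For the 36 pairs of libraries within a group, the median over genes of the absolute log2 difference between the libraries was 0.128 to 0.212. No pair was counted as a duplicate. The fit was also run on simulated data, and the outcome is not reported here.

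Per-library values are given for at most 14 members called in either AngII comparison, by smallest adjusted p, for members called elsewhere, and otherwise for the highest and lowest fold change; of the other sarcomere genes, those called with the largest change. Clock genes, and Flnc, Lmod2, Pdlim3, Tnnt2, Tnni3 and Tpm1 between the AngII groups, were named after their values were seen. The members and lists were chosen with earlier results of these data known. Levels per kb used GENCODE vM21 transcripts. Alternatives covered scaling (with TMM factors computed by their formula, whose weights assume counts and are approximate for these values), pseudocount, filter, samples fitted, variance model, library weights, library numbers and each library left out. Left atria and younger mice were not analysed here.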

Additional observations from a re-analysis of the deposited data

Results flagged for a closer look

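In 14 of 216 sets of 4 libraries (36 members in 6 groups) 1 library stood far from the other 3, where chance alone gives about 1 in 20. In Ovx + AngII these were Actn2 at 68768 in library 54 (73982 to 74830 in the others) and Myoz2 at 24719 in library 48 (24122 to 24211). In Ovx they were Ttn at 232438 in library 43 (114119 to 122780), Myl4 at 78.2 in library 44 (43.3 to 46.2), Mylk3 at 15037 in library 45 (14650 to 14668) and Pdlim3 at 357 in library 53 (289 to 296). In Ctrl + AngII, Myl2 was at 197546 in library 41 (181852 to 183903). In Ctrl, library 39 was low for Mybpc3 at 81438 (94207 to 95295), Csrp3 at 21048 (25284 to 26124) and Flnc at 11098 (13350 to 13677).

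In gonadectomized males Nebl was at 7545 in library 36 (5716 to 5914) and Synpo2l at 5161 in library 34 (4623 to 4702). In control males library 31 was high for Mypn at 6459 (5333 to 5380) and Ldb3 at 38093 (32724 to 33571).

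The AngII effect differed between Ovx and Ctrl for Tcap by -0.86 on the log2 scale, a difference tested directly with limma (adjusted p = 0.045).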

How the results depend on the processing

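Among 864 values of named members under an alternative or with 1 library left out, 754 kept their direction and their side of the threshold, 104 kept the direction and lost the call, 2 gained a call and 4 reversed. Of the 4, 1 was Trim63 with gonadectomy in males, uncalled throughout (-2.1e-05 to 0.20 with 1 library left out). The others were Actn2 (-0.011), Csrp3 (-0.021) and Lmod2 (-0.035) with AngII in Ctrl on the deposited scale. Values and counts on that scale include the steps between groups. On that scale the members called were 21 with AngII in Ctrl, 4 for the difference of AngII effects, 3 between Ovx + AngII and Ctrl + AngII, and 28 between control males and Ctrl females. AngII in Ctrl gave 7 calls when only its own groups were fitted, 6 without libraries 49 to 54 (fewer samples) and 3 when tested against a log2 fold of 0.2. AngII in Ovx gave 16 with library weights and 3 against a fold of 0.2. The Tcap difference of AngII effects was no longer called (0 members) under TMM scaling, upper-quartile scaling, no filter, all 24 libraries in the fit, no trend, a robust fit, the number range as a covariate, without libraries 49 to 54, and against a fold of 0.2, with adjusted p of 0.053 to 0.65. Between the AngII groups the calls were 2 with library weights and 0 without libraries 49 to 54 (Tcap adjusted p = 0.060). Control males against Ctrl females gave 1 call with a mean of at least 50, a robust fit or the number covariate. With 1 library left out, the calls ranged from 9 to 11 (AngII in Ovx), 9 to 12 (AngII in Ctrl), 0 to 1 (difference) and 1 to 1 (between AngII groups), and stayed at 0 elsewhere. Apart from the fits named, causes were not tested. No paired analysis was possible because the libraries of different groups share no number. Depth was only estimated, in relative terms, so differences of low genes such as Pdlim3 and Myl4 were limited to an unknown degree.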
